A study of Homo sapiens with 6 samples.

Results

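The RNA degradation machinery is the set of enzymes and adaptors that shorten, decap and digest cellular RNA. Its members were taken as the rows of the deposited table that carry the KEGG pathway hsa03018 (RNA degradation), leaving out genes that are also annotated to ribosome biogenesis (hsa03008), the spliceosome (hsa03040) or glycolysis (hsa00010) and genes whose symbols start with HSP. The pathway was given to 79 genes, the exclusions removed 18, and 61 of the 20030 listed genes remained. Expression was measured in 786-O cells, an established human line of clear cell renal cell carcinoma, by RNA sequencing of 3 libraries of control cells carrying a scrambled shRNA (vector) and 3 libraries of cells carrying an shRNA against YB1 (shYB1). Both groups were stably transduced with lentivirus, selected with puromycin and used at passages 16 to 18. The series design text speaks of several independent shRNAs, whereas the labels give a single shYB1 group, and whether its 3 libraries carry 1 hairpin or several is not given in the sources used here. No label says that the replicates came from separate cultures, so p-values measure only the spread between these libraries, which may be technical.

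Most cytoplasmic mRNA decay starts with removal of the poly(A) tail by the PAN2-PAN3 and CCR4-NOT deadenylases, after which the mRNA is decapped by DCP2 and digested from the 5′ end, or digested from the 3′ end by the RNA exosome. The exosome is a barrel of subunits without catalytic activity of its own in human cells, to which the nucleases DIS3, DIS3L or EXOSC10 are attached. YB1, encoded by YBX1, is a Y-box protein that coats mRNA and is known to affect its translation and stability.

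YBX1, on chromosome 1 of GRCh38 from 42682418 to 42703805, checks the labels of the libraries. It had 366, 373 and 378 FPKM in vector cells and 167, 166 and 173 FPKM in shYB1 cells, a log2 difference of −1.14 (standard error 0.031, adjusted p = 1.53e-08) by limma, with p-values adjusted by Benjamini-Hochberg over every gene tested. The libraries' FPKM (fragments per kilobase of transcript, scaled to the mapped fragments of the library) summed to 282736 to 295887, with overlapping groups. The median ratio of the lowest values put the depths of the other libraries at 0.896 to 0.959 times that of vector replicate 1. Only genes with nearly equal values were kept for that ratio, so it could not show a large difference in depth. The absolute depth is unknown. Of 12 markers of kidney and renal carcinoma epithelium, 0 were under 1 FPKM, with a summed level of 2445 to 2567 FPKM, and PAX8, a kidney lineage factor, had 76.8, 77.2 and 77.3 FPKM in vector cells and 78.1, 75.6 and 78.7 FPKM in shYB1 cells. The 5 blood cell markers summed to 0.251 to 0.609 FPKM, the 4 endothelial markers to 0.240 to 0.406, the 4 fibroblast markers to 2.50 to 2.95 and the 3 hepatocyte markers to 0.00 to 0.382. In bulk RNA, a change in the number of cells of a kind and a change in the RNA of each cell cannot be told apart.

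The members spanned a wide range of levels. PABPC1, the main cytoplasmic poly(A)-binding protein, alone made up 58.8% of the members' summed FPKM in vector cells and 56.3% in shYB1 cells. It was followed by PABPC4, BTG1, CNOT1 and PATL1, and 47 of the 53 tested members lay between 2 and 20 FPKM. The testis-linked or tissue-restricted genes BTG4, PABPC1L2A, PABPC1L2B and PNLDC1 were listed at 0 in all 6 libraries. PABPC3, PABPC4L, PABPC5 and BTG2 had values above 0 but a mean under 1 FPKM, and these 8 genes were not tested.

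**Figure D1:**
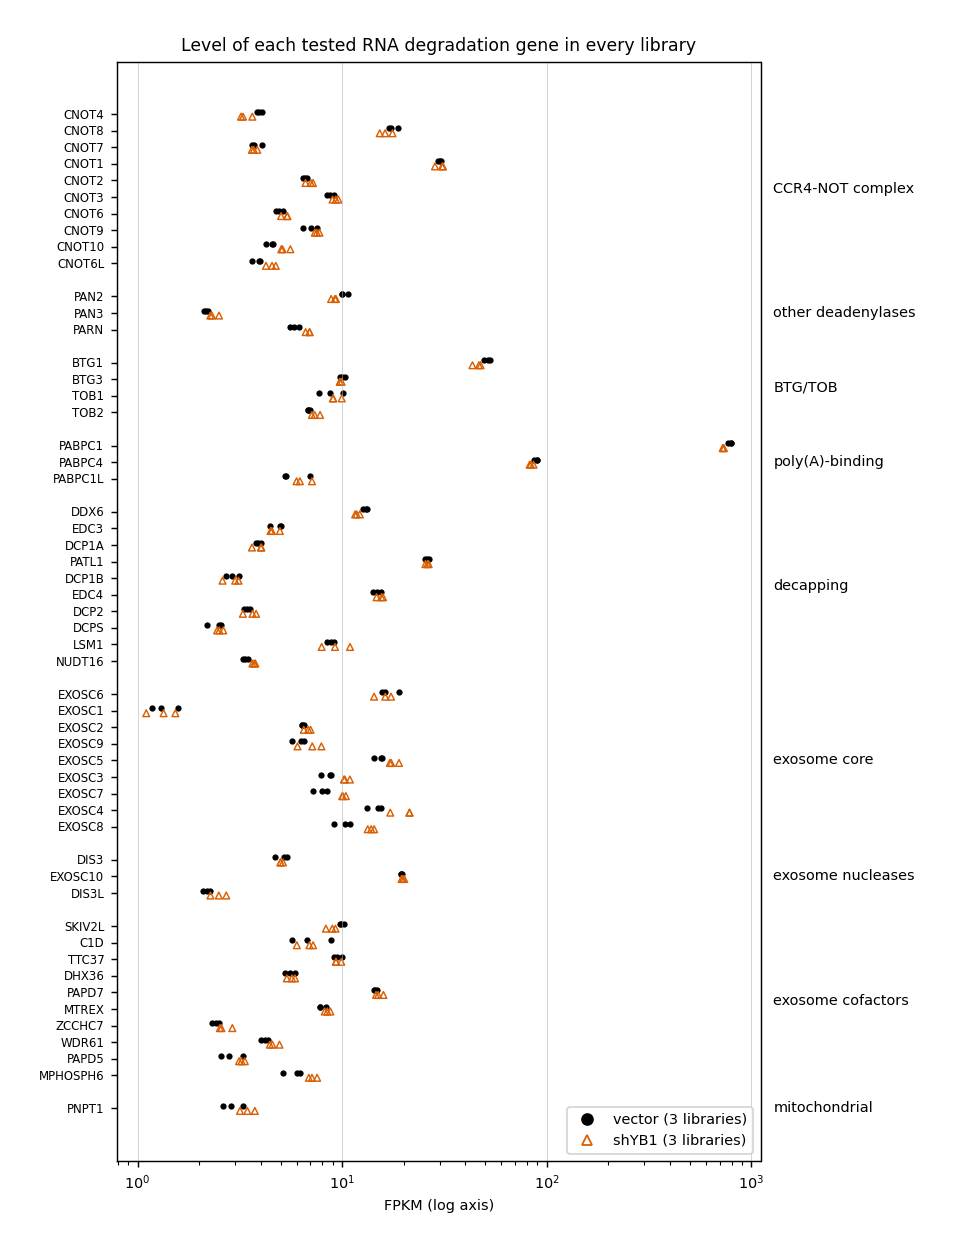
Level of the 53 tested RNA degradation genes in each library, in FPKM on a log axis, grouped by role. Filled circles are the 3 vector libraries and open triangles the 3 shYB1 libraries, and the levels run from about 1 FPKM for EXOSC1 to 798 FPKM for PABPC1 in vector replicate 3.

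Knockdown of YB1 was accompanied by small differences in this machinery. At an adjusted p under 0.05 by limma on log2(FPKM + 0.1), 5 of the 53 tested members fell and 9 rose in shYB1 cells. The same test called 6.93% of all 10439 genes tested lower and 18.7% higher, so the 9.43% of members called lower and the 17.0% called higher lay near the shares of all genes, and 14 called members in either direction stood beside 25.7% of all genes. The 3 shYB1 libraries lay below the 3 vector libraries in 7 members and above them in 16, and over all genes tested this was so in 12.5% and 30.1%. The median log2 difference of the tested members was 0.076, beside 0.055 for all genes tested. A change of 2-fold or more with an unadjusted p under 0.05, the screening rule in the study's methods, was met by 0 members, while 0.182% of all genes met it toward lower and 0.0383% toward higher values. At an unadjusted p under 0.05 alone, 7 members were lower and 10 higher by limma, beside 10.8% and 28.2% of all genes tested, and the largest difference of any member was 1.37-fold.

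**Figure D2:**
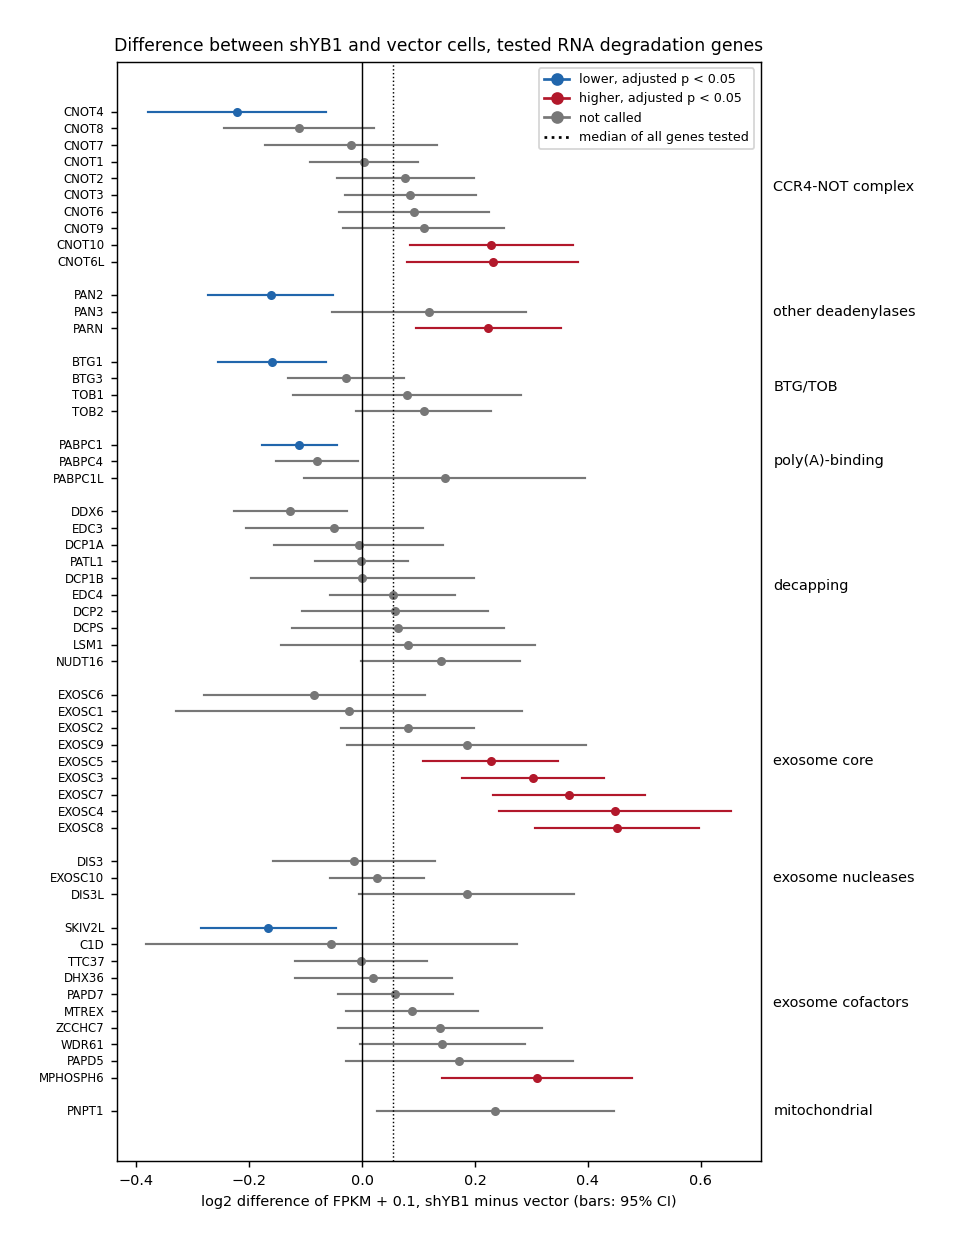
Log2 difference between shYB1 and vector cells for the 53 tested RNA degradation genes, with 95% confidence intervals from limma, grouped by role. Blue marks the 5 genes called lower and red the 9 called higher, 5 of them in the exosome core, and the dotted line is the median of all genes tested (0.055).

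Of the 9 members that rose, 5 were subunits of the exosome core, the barrel through which RNA is threaded to the nucleases. Among its 9 subunits EXOSC3, EXOSC4, EXOSC5, EXOSC7 and EXOSC8 rose, 0 fell and 4 did not pass the test, so 55.6% were called higher beside 18.7% of all genes, and the median log2 difference was 0.23. Positions are those of RefSeq on GRCh38.p14. EXOSC8 (chromosome 13, 37000786 to 37009614), a barrel subunit related to RNase PH, had 9.11, 10.4 and 10.9 FPKM in vector cells and 13.9, 13.3 and 14.3 FPKM in shYB1 cells. Its log2 difference was 0.45 (standard error 0.065, adjusted p = 0.000962), from 10.1 ± 0.908 to 13.9 ± 0.502 FPKM (SD, n = 3 each, limma with Benjamini-Hochberg adjustment). Every shYB1 library lay above every vector library. EXOSC4, another RNase PH-like subunit, had 15.02, 13.2 and 15.5 FPKM in vector cells and 21.3, 17.2 and 21.3 FPKM in shYB1 cells. Its log2 difference was 0.45 (standard error 0.091, adjusted p = 0.00761), and shYB1 replicate 2 was the lowest of the shYB1 libraries but still above all vector libraries. EXOSC7 (chromosome 3, 44976244 to 45012668), of the same family, had 7.995, 7.23 and 8.42 FPKM in vector cells and 10.4, 10.1 and 10.02 FPKM in shYB1 cells, a log2 difference of 0.37 (standard error 0.061, adjusted p = 0.00204), with no overlap between the groups. EXOSC3 (chromosome 9, 37779714 to 37785092), a cap subunit with RNA-binding domains, had 8.70, 7.91 and 8.83 FPKM in vector cells and 10.3, 10.2 and 10.9 FPKM in shYB1 cells, a log2 difference of 0.30 (standard error 0.057, adjusted p = 0.00393). EXOSC5 (chromosome 19, 41386374 to 41397359), also RNase PH-like, had 14.4, 15.7 and 15.5 FPKM in vector cells and 17.4, 17.1 and 19.0 FPKM in shYB1 cells, a log2 difference of 0.23 (standard error 0.054, adjusted p = 0.0119). The groups did not overlap in either gene.

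The other 4 core subunits were not called. The cap subunit EXOSC2 had 6.34, 6.38 and 6.497 FPKM in vector cells and 6.497, 7.01 and 6.83 FPKM in shYB1 cells, with shYB1 replicate 1 level with vector replicate 3 at the digits given (log2 difference 0.08, 95% confidence interval −0.04 to 0.20). The barrel subunit EXOSC9 had 6.51, 6.29 and 5.66 FPKM in vector cells and 6.05, 7.15 and 7.92 FPKM in shYB1 cells (interval −0.03 to 0.40), and shYB1 replicate 1 fell within the vector range. EXOSC6, the remaining barrel subunit, had 16.2, 15.6 and 19.0 FPKM in vector cells and 16.3, 14.3 and 17.3 FPKM in shYB1 cells (interval −0.28 to 0.11), and EXOSC1, the last cap subunit, had 1.17, 1.30 and 1.57 FPKM in vector cells and 1.10, 1.53 and 1.34 FPKM in shYB1 cells (interval −0.33 to 0.28). These intervals still allow changes of the size seen in EXOSC5 for EXOSC9 and EXOSC1. Summed over the 9 subunits, the core had 85.5, 83.9 and 91.9 FPKM in vector cells and 103, 97.9 and 109 FPKM in shYB1 cells, without overlap.

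Length and shared sequence are given beside these 5 genes. Their transcripts in GENCODE release 29 had 768 to 1198 bases, and among all tested genes shorter than 1500 bases 20.6% were called higher, with a median log2 difference of 0.059. All 5 stayed called after trends with transcript length and GC content had been removed from each library, a check chosen after the data were seen. EXOSC4 shares 30.9% of its exon bases with AC109322.1 on the opposite strand and EXOSC3 shares 14.2% of its 50-base words with AL138752.2. Whether the counting used strand is not given in the sources used here, so reads of EXOSC4 and its partner may not be separable. The part of these overlaps in the differences was not tested.

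**Figure D3:**
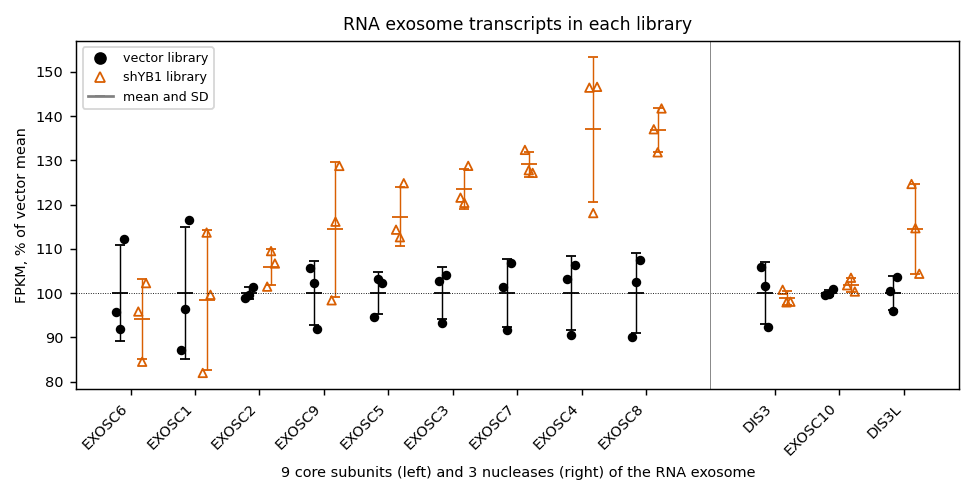
FPKM of the 9 exosome core subunits and the 3 exosome nucleases in every library, as a percentage of the gene's vector mean. Filled circles are vector libraries, open triangles are shYB1 libraries, and the bars give mean and SD (n = 3). The shYB1 libraries of EXOSC5, EXOSC3, EXOSC7, EXOSC4 and EXOSC8 lie above all vector libraries, while those of DIS3 and EXOSC10 overlap the vector range.

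None of the 3 exosome nucleases was called by limma, beside 25.7% of all genes tested. At an unadjusted p under 0.05 it was again 0, beside 10.8% lower and 28.2% higher of all genes tested. EXOSC10, the nuclear nuclease, had 19.3, 19.4 and 19.6 FPKM in vector cells and 19.8, 20.1 and 19.5 FPKM in shYB1 cells, a log2 difference of 0.03 with a 95% confidence interval of −0.06 to 0.11. DIS3, the main nuclease of the nuclear exosome, had 5.40, 5.19 and 4.72 FPKM in vector cells and 5.14, 4.996 and 5.002 FPKM in shYB1 cells (interval −0.16 to 0.13), and its groups overlapped. DIS3L, its cytoplasmic relative, had 2.19, 2.09 and 2.26 FPKM in vector cells and 2.71, 2.50 and 2.27 FPKM in shYB1 cells (interval −0.01 to 0.38). The 3 shYB1 values of DIS3L were above the vector values, but vector replicate 3 and shYB1 replicate 3 were nearly equal. Whether the core and the nucleases differed in their response was not tested.

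Among the 10 exosome cofactors, MPHOSPH6 rose, SKIV2L fell and 8 did not pass the test. That is 10% called higher and 10% called lower, beside 18.7% and 6.93% of all genes tested. MPHOSPH6 (chromosome 16, 82148162 to 82170224), which links the nuclear exosome to its helicase, had 5.999, 6.23 and 5.13 FPKM in vector cells and 7.55, 7.12 and 6.87 FPKM in shYB1 cells, a log2 difference of 0.31 (standard error 0.076, adjusted p = 0.0142). The call was lost without shYB1 replicate 1 (adjusted p = 0.0539 by limma) and with length and GC trends removed (adjusted p = 0.0586). SKIV2L (chromosome 6, 31959175 to 31969751), the helicase of the cytoplasmic Ski complex that feeds mRNA to the exosome, had 9.77, 9.83 and 10.2 FPKM in vector cells and 8.33, 8.95 and 9.28 FPKM in shYB1 cells, a log2 difference of −0.17 (standard error 0.054, adjusted p = 0.0455). Its adjusted p was the highest of the lower calls, and leaving out any single library except shYB1 replicate 3 gave an adjusted p of 0.0801 to 0.154 by limma. Its partners in the Ski complex were not called: TTC37, the scaffold, had 9.48, 9.98 and 9.13 FPKM in vector cells and 9.90, 9.32 and 9.34 FPKM in shYB1 cells, and WDR61 had 4.36, 4.20 and 4.04 FPKM in vector cells and 4.43, 4.94 and 4.56 FPKM in shYB1 cells. MTREX, the helicase of the nuclear exosome, had 7.83, 8.35 and 7.76 FPKM in vector cells and 8.76, 8.47 and 8.23 FPKM in shYB1 cells (log2 difference 0.09, interval −0.03 to 0.21). The noncanonical poly(A) polymerases that tag RNA for the nuclear exosome were not called either, with 2.79, 2.57 and 3.26 FPKM in vector and 3.34, 3.22 and 3.14 FPKM in shYB1 for PAPD5 and 14.3, 14.9 and 14.5 FPKM in vector and 14.99, 15.9 and 14.6 FPKM in shYB1 for PAPD7. ZCCHC7, a zinc knuckle partner of these polymerases, and the helicase DHX36 had log2 differences of 0.14 and 0.02, and neither passed the test. C1D, an adaptor of EXOSC10, was the most variable member of this group, at 5.66, 8.79 and 6.77 FPKM in vector and 6.01, 7.21 and 6.92 FPKM in shYB1, and 40.3% of its 50-base words are shared with the copy C1DP1 or other genes.

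The deadenylases did not move in 1 direction. In the CCR4-NOT complex, the main cytoplasmic deadenylase, CNOT6L and CNOT10 rose, CNOT4 fell and 7 of the 10 tested subunits did not pass the test. The 20% called higher and 10% called lower lay near the 18.7% and 6.93% of all genes tested. CNOT6L (chromosome 4, 77713387 to 77820269), a catalytic subunit of the CCR4 type, had 3.62, 3.95 and 3.91 FPKM in vector cells and 4.55, 4.74 and 4.25 FPKM in shYB1 cells, a log2 difference of 0.23 (standard error 0.069, adjusted p = 0.0320). Its paralogue CNOT6 had 4.78, 4.91 and 5.13 FPKM in vector cells and 5.40, 5.03 and 5.38 FPKM in shYB1 cells, a log2 difference of 0.09 that was not called (interval −0.04 to 0.23). CNOT10 (chromosome 3, 32685188 to 32773875), a noncatalytic subunit, had 4.24, 4.60 and 4.54 FPKM in vector cells and 5.04, 5.59 and 5.11 FPKM in shYB1 cells, a log2 difference of 0.23 (standard error 0.065, adjusted p = 0.0273). Neither rise was held by every library: CNOT6L lost its call without vector replicate 1, shYB1 replicate 1 or shYB1 replicate 2 (adjusted p = 0.108, 0.0832 and 0.118 by limma), and CNOT10 without vector replicate 1 or shYB1 replicate 2 (adjusted p = 0.0937 and 0.110). CNOT4 (chromosome 7, 135361795 to 135510102), a ubiquitin ligase associated with the complex, had 3.91, 3.85 and 4.07 FPKM in vector cells and 3.64, 3.28 and 3.20 FPKM in shYB1 cells, a log2 difference of −0.22 (standard error 0.071, adjusted p = 0.0436). That call was held only with all libraries or without shYB1 replicate 1, and the other 5 omissions gave an adjusted p of 0.0706 to 0.126 by limma.

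The catalytic subunits of the CAF1 type were not called. CNOT8 had 17.0, 18.8 and 17.3 FPKM in vector cells and 16.2, 15.3 and 17.6 FPKM in shYB1 cells, with overlapping groups and an interval of −0.25 to 0.02. CNOT7 had 3.70, 3.61 and 4.04 FPKM in vector cells and 3.85, 3.70 and 3.62 FPKM in shYB1 cells (interval −0.17 to 0.13). CNOT1, the scaffold of the complex and its most abundant transcript, had 29.4, 30.5 and 30.1 FPKM in vector cells and 31.1, 30.8 and 28.4 FPKM in shYB1 cells, and its log2 difference of 0.0031 lay in an interval of −0.09 to 0.10. CNOT2, CNOT3 and CNOT9, further noncatalytic subunits, had log2 differences of 0.08, 0.09 and 0.11, all uncalled.

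Outside CCR4-NOT, PAN2 fell and PARN rose. PAN2 (chromosome 12, 56316936 to 56334000), the catalytic subunit of the deadenylase that starts tail shortening, had 10.02, 10.7 and 10.004 FPKM in vector cells and 9.22, 9.33 and 8.84 FPKM in shYB1 cells, a log2 difference of −0.16 (standard error 0.050, adjusted p = 0.0369). PAN3, the subunit that recruits it, had 2.12, 2.21 and 2.17 FPKM in vector cells and 2.27, 2.50 and 2.31 FPKM in shYB1 cells, a difference of 0.12 that was not called (interval −0.05 to 0.29). PARN (chromosome 16, 14435701 to 14630260), a poly(A)-specific ribonuclease that also trims small noncoding RNA, had 5.85, 5.53 and 6.15 FPKM in vector cells and 6.94, 6.93 and 6.64 FPKM in shYB1 cells, a log2 difference of 0.22 (standard error 0.058, adjusted p = 0.0184). The groups of PAN2 and of PARN did not overlap. The call of PAN2 was lost without any single library other than vector replicate 3 (adjusted p = 0.0639 to 0.114 by limma), and that of PARN without vector replicate 2, shYB1 replicate 1 or shYB1 replicate 2 (adjusted p = 0.0600, 0.0587 and 0.0627).

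Of the BTG/TOB proteins, which bring the CAF1-type deadenylases to mRNA and restrain proliferation, BTG1 fell. BTG1 (chromosome 12, 92140278 to 92145846) had 52.7, 49.4 and 51.3 FPKM in vector cells and 43.3, 46.6 and 47.5 FPKM in shYB1 cells, a log2 difference of −0.16 (standard error 0.043, adjusted p = 0.0216). Without vector replicate 1 the adjusted p was 0.0787 and without shYB1 replicate 1 it was 0.0801 by limma. LINC01619 and other genes share 13.7% of the 50-base words of the BTG1 transcript. BTG3, TOB1 and TOB2 had log2 differences of −0.03, 0.08 and 0.11 and were not called. BTG2 was under the level for testing, at 0.995, 0.776 and 0.867 FPKM in vector cells and 0.650, 0.707 and 0.675 FPKM in shYB1 cells.

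The poly(A)-binding proteins cover the tail and regulate both its removal and translation. PABPC1 fell from 767, 797 and 798 FPKM in vector cells to 726, 734 and 725 FPKM in shYB1 cells, a log2 difference of −0.11 (standard error 0.030, adjusted p = 0.0207). The shYB1 libraries lay close together, below all vector libraries. Its call was lost without vector replicate 2 or any 1 shYB1 library (adjusted p = 0.0617 to 0.0725 by limma) and after quantile normalization (log2 difference −0.04, adjusted p = 0.324), and PABPC3 and other copies share 11.99% of the 50-base words of its transcript. PABPC4 had 89.8, 86.9 and 90.1 FPKM in vector cells and 83.7, 82.5 and 86.2 FPKM in shYB1 cells, again with every shYB1 library below every vector library, but a log2 difference of −0.08 (standard error 0.033, adjusted p = 0.0949) that was not called. PABPC1L had 5.24, 6.96 and 5.34 FPKM in vector cells and 7.12, 6.22 and 5.99 FPKM in shYB1 cells, and its groups overlapped.

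No decapping gene was called among the 10 tested, at an adjusted p under 0.05 by limma. Of all genes tested, 6.93% were called lower and 18.7% higher. At an unadjusted p under 0.05, DDX6 was the single lower one and no gene was higher, beside 10.8% and 28.2% of all genes tested. DDX6, the helicase that joins deadenylation to decapping and translational repression, had 12.6, 13.0 and 13.2 FPKM in vector cells and 11.8, 12.2 and 11.6 FPKM in shYB1 cells, with the shYB1 libraries below the vector libraries and a log2 difference of −0.13 (standard error 0.045, adjusted p = 0.0618). DCP2, the decapping enzyme, had 3.32, 3.54 and 3.41 FPKM in vector cells and 3.27, 3.65 and 3.798 FPKM in shYB1 cells (log2 difference 0.06, interval −0.11 to 0.22). Its activators were not called and their groups overlapped, with log2 differences of −0.01 for DCP1A, −0.05 for EDC3 and 0.05 for EDC4. PATL1, a scaffold between deadenylation and decapping, had 25.5, 26.1 and 26.6 FPKM in vector cells and 26.1, 26.5 and 25.5 FPKM in shYB1 cells, which gave the narrow interval of −0.08 to 0.08. DCPS, which removes the cap from short decay products, had 2.52, 2.18 and 2.57 FPKM in vector cells and 2.63, 2.51 and 2.45 FPKM in shYB1 cells (interval −0.12 to 0.25). NUDT16, a further decapping enzyme, had 3.27, 3.36 and 3.46 FPKM in vector cells and 3.77, 3.72 and 3.64 FPKM in shYB1 cells, above the vector range in each shYB1 library but not called (log2 difference 0.14, adjusted p = 0.133 by limma). DCP1B had a log2 difference of 0.00044 and LSM1, of the ring that binds shortened tails, one of 0.08. PNPT1, the mitochondrial polynucleotide phosphorylase, had 2.86, 2.63 and 3.28 FPKM in vector cells and 3.17, 3.74 and 3.44 FPKM in shYB1 cells, a log2 difference of 0.24 (standard error 0.095, adjusted p = 0.0933) that was not called.

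The count of lower and higher members depended on how the libraries were scaled. FPKM as deposited placed the median gene 0.055 higher in shYB1 cells, and 73.0% of the calls over all genes were higher. After median-of-ratios rescaling, in which each library is divided by the median ratio of its genes to their mean over the libraries, 47.9% of the calls over all genes were higher. Of the members, 7 were then lower and 6 higher, beside 12.2% and 11.2% of all genes. The 5 lower calls all remained and DDX6 and PABPC4 joined them (log2 differences −0.18 and −0.14, adjusted p = 0.0125 and 0.0132 by limma). CNOT10, CNOT6L and PARN lost their calls (adjusted p = 0.0705, 0.0813 and 0.0577). EXOSC3, EXOSC4, EXOSC5, EXOSC7, EXOSC8 and MPHOSPH6 kept theirs, with log2 differences of 0.25, 0.39, 0.17, 0.31, 0.40 and 0.25. The 5 exosome core genes were called higher in all 16 alternatives tried, with adjusted p between 0.000179 and 0.0456 by limma, whereas none of the 5 lower members was called in every alternative that tested it.

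Other factors of RNA decay were counted over lists that had been chosen with earlier results of these data known. Of their 47 tested genes, 4 fell and 9 rose (8.51% and 19.1%, beside 6.93% and 18.7% of all genes tested). Nonsense-mediated decay removes mRNA with premature stop codons, and 6 of its 15 tested genes rose and 0 fell, beside 18.7% and 6.93% of all genes tested. SMG1, the kinase of the pathway, had 6.60, 6.99 and 6.41 FPKM in vector cells and 9.08, 8.56 and 7.78 FPKM in shYB1 cells, a log2 difference of 0.34 (standard error 0.066, adjusted p = 0.00457). UPF3B, a bridge to the exon junction complex, had 3.43, 4.26 and 4.11 FPKM in vector cells and 4.77, 5.08 and 4.96 FPKM in shYB1 cells and a log2 difference of 0.33 (standard error 0.083, adjusted p = 0.0169). That call was lost without shYB1 replicate 2 (adjusted p = 0.0580 by limma). RNPS1 and SMG5 rose by log2 differences of 0.27 and 0.23, while UPF1, the central helicase, was not called. After median-of-ratios rescaling 5 of the 15 were higher and 0 lower, beside 11.2% and 12.2% of all genes tested.

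Among 16 RNA-binding factors that act on chosen mRNAs, not all by promoting decay, 4 fell and 1 rose (25.0% and 6.25%, beside 6.93% and 18.7% of all genes tested). ZC3H12A, an endonuclease that cuts inflammatory mRNA, had 36.1, 36.3 and 34.8 FPKM in vector cells and 21.3, 22.9 and 20.6 FPKM in shYB1 cells, a log2 difference of −0.72 (standard error 0.046, adjusted p = 5.31e-06). The 3 ZFP36 family proteins, which bind AU-rich elements and recruit CCR4-NOT, also fell. ZFP36L1 had 319, 330 and 320 FPKM in vector cells and 254, 254 and 247 FPKM in shYB1 cells, a log2 difference of −0.36 (standard error 0.031, adjusted p = 3.66e-05). ZFP36 and ZFP36L2 had log2 differences of −0.21 (standard error 0.034, adjusted p = 0.00163) and −0.23 (standard error 0.057, adjusted p = 0.0160), and the call of ZFP36L2 was lost without vector replicate 2 (adjusted p = 0.0560 by limma) or without shYB1 replicate 2 (adjusted p = 0.0616). HNRNPD, another AU-rich element binder, rose by a log2 difference of 0.17. Of 7 tested genes of miRNA-guided silencing, 0 were called in either direction by limma, beside 25.7% of all genes tested. The unadjusted p was under 0.05 for 1 (AGO4, higher), beside 10.8% lower and 28.2% higher of all genes tested. Of the 9 tested genes for 5′ exonucleases and LSM proteins that the exclusions had removed, 2 rose and 0 fell. The 22.2% called higher lay near the 18.7% of all genes tested. LSM2 and LSM4 were the genes that rose (log2 differences 0.31 and 0.26), and XRN1 and XRN2 were not called.

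**Figure D4:**
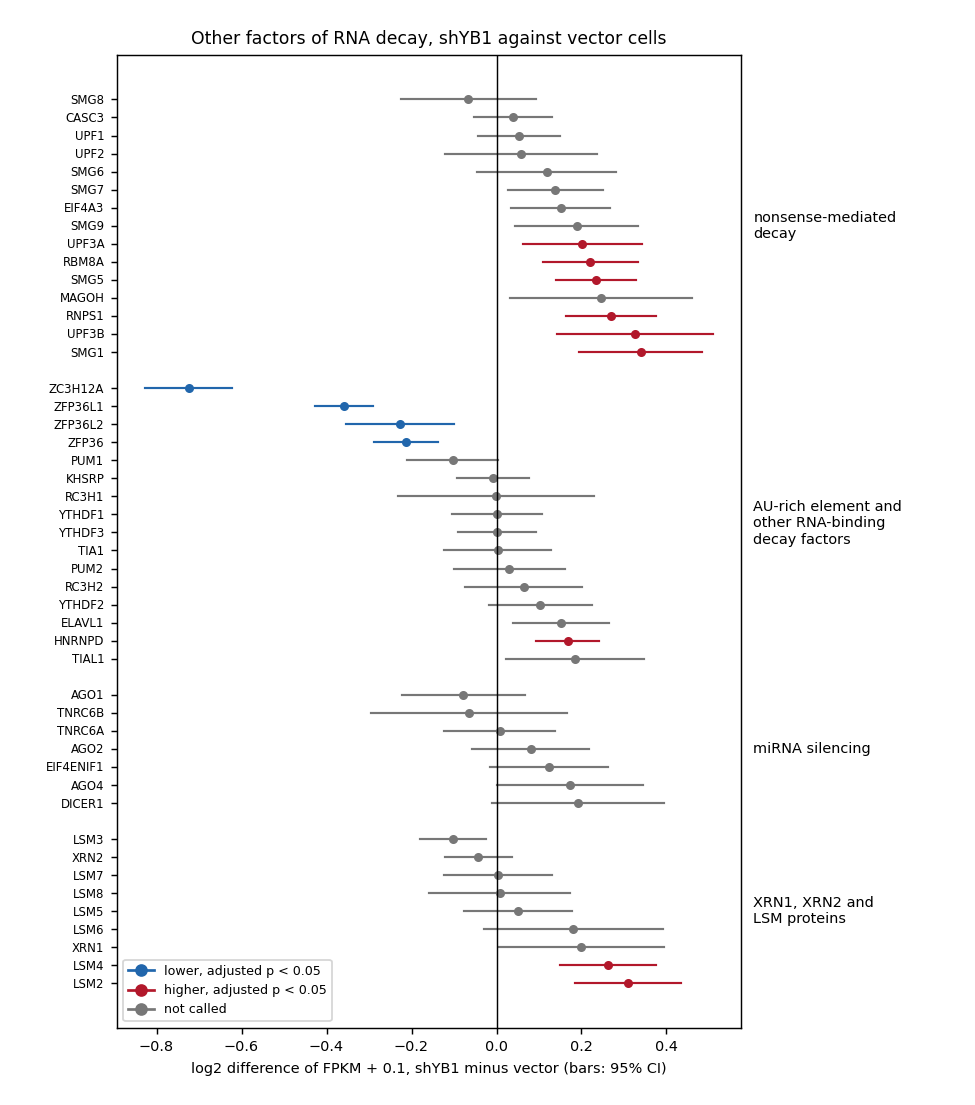
Log2 difference between shYB1 and vector cells for the 47 tested genes of the other RNA decay lists, with 95% confidence intervals from limma. ZC3H12A and the 3 ZFP36 family genes lie to the left of 0 and are called lower, and the 6 called genes of nonsense-mediated decay lie to the right.

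YB1 is named after the Y-box, an inverted CCAAT element, and the study searched a promoter for CCAAT and ATTGG. It found matches there, but reported from chromatin immunoprecipitation in 786-O cells that YB1 bound none of that promoter's fragments. The same letters were searched on both strands in promoters from RefSeq (GRCh38.p14), which were matched for 45 of the 53 tested members. These windows were shorter than the study's, beginning upstream of the start site and ending shortly after it. A match was found in 16 of the 45 (35.6%), beside 37.2% of the promoters of all tested genes and 35.7% of all promoters in the table. Among the called members it was found in 2 of 4 lower genes with a promoter (BTG1 and PAN2) and in 2 of 8 higher ones (CNOT10 and EXOSC5). A match is only a run of letters and not a binding site. To show what these matches look like, the promoters of PAN2, which fell, and of CNOT10, EXOSC5 and EXOSC8, which rose, are given with each CCAAT or ATTGG in capitals.
PAN2, chr12:56333951-56334250, minus strand: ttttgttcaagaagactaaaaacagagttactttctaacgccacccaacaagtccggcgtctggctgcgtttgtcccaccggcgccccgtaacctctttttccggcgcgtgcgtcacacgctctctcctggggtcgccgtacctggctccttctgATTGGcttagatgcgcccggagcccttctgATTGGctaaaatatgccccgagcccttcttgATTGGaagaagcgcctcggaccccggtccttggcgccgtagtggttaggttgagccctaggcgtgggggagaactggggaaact
CNOT10, chr3:32695291-32695590, plus strand: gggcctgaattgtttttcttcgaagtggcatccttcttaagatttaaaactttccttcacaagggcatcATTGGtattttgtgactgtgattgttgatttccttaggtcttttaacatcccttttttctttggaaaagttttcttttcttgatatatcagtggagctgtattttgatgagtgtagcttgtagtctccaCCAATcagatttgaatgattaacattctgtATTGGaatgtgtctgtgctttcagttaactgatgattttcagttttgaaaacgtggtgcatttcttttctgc
EXOSC5, chr19:41397310-41397609, minus strand: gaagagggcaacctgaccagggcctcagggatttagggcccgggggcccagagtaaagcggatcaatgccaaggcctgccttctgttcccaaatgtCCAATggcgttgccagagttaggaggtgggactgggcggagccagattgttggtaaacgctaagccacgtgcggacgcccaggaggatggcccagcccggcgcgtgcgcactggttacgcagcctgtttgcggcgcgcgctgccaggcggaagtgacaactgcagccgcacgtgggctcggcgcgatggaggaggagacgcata
EXOSC8, chr13:37000536-37000835, plus strand: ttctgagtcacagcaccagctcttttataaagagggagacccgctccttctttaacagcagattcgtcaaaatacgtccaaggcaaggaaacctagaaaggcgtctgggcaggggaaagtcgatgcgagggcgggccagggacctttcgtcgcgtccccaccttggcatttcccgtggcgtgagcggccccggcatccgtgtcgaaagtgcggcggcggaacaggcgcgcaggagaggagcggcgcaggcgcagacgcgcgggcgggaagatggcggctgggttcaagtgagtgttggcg
In PAN2 the 3 matches start at −95, −65 and −34 relative to the start site, in CNOT10 they start at −181, −52 and −22, and EXOSC5 has 1 at −154. The EXOSC8 window holds 0. The CNOT10 window in the RefSeq table belongs to a start site inside the gene, downstream of the gene's annotated first base, whereas the other windows span the annotated ends of their genes. CCGGAAG or its reverse complement, an ETS core, was found in 11 of the 45 promoters (24.4%, beside 21.2% for all tested genes). CACGTG, an E-box, was found in 3 (6.67%, beside 10.6%).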

How the data were processed

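Trizol-extracted total RNA of 3 vector and 3 shYB1 libraries was sequenced on Illumina chemistry. The authors deposited FPKM per gene and library, with KEGG pathways. The submitters' processing notes name Trimmomatic, HISAT2, Cufflinks, HTSeq and DESeq and the build GRCh38; versions, filters and strandedness are not given in the sources used here, and 0 columns of per-library values were left out. The files hold no counts, so depth limits could not be computed.

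From the deposited FPKM, log2(FPKM + 0.1) was tested for the 10439 genes whose mean reached 1 FPKM with limma 3.58.1 in R 4.3.3 (trend and robust variance prior, two-sided, Benjamini-Hochberg over all genes tested, no replicate block). The added 0.1 shrinks differences of low genes. The step was tested on simulated data. Members, roles and lists were chosen with earlier results of these data known. Named genes were all called members, the 5 most abundant, a fixed set of enzymes, and at most 4 called genes a direction from each further list; uncalled members were added by role after their values were seen. Alternatives were other pseudocounts (1 and 0.01), filters, scalings, a plain variance prior, a replicate block and each library left out. Coordinates and promoters are those of RefSeq (GRCh38.p14), and lengths and shared 50-base words those of GENCODE 29. Tables were handled with Python 3.11.15 and pandas 2.3.3.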

Additional observations from a re-analysis of the deposited data

How the results depend on the processing

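YBX1 stayed lower in every alternative, and the count of members past the 2-fold criteria was 0 in each. The 9 higher members became 6 to 11 when 1 library was left out and 5 with length and GC trends removed, which was chosen after the data were seen. Over all genes, the 1956 higher of 10439 tested became 1323 to 1944 with 1 library left out. With length and GC trends removed they became 1332 of 10400. The 5 lower members became 1 without a filter on low values, 2 with limma's plain variance prior, and 1 to 3 with 1 library left out, a fit with fewer samples. Over all genes, the 723 lower of 10439 tested became 616 of 15988 without the filter. They became 610 of 10439 with the plain prior and 513 to 606 with 1 library left out. The cause of these changes in count was not tested. The median log2 difference of all tested members was 0.076. It became 0.020 with median-of-ratios rescaling, 0.012 with quantile normalization and 0.016 with length and GC trends removed, and 0.067 to 0.084 with 1 library left out. The median of all genes tested moved too, from 0.055 to −0.00057, 0.0022 and 0.00077 in the same order. With 1 library left out it was 0.045 to 0.062. The 4 lower genes of the other decay lists became 7 with length and GC trends removed. Over all genes tested, the lower calls went from 723 of 10439 to 1398 of 10400 between the same fits. Among the called members and the abundant or catalytic ones, which were compared singly across all alternatives, the sign changed in no called member but changed for CNOT1 (−0.054 with median-of-ratios rescaling, −0.0012 with a common total, −0.046 with quantile normalization, −0.068 with length and GC trends removed), EXOSC10 (−0.030, −0.040 with quantile normalization and −0.029 with length and GC trends removed) and DCP2 (−0.00090 and −0.014 with the last pair). Of the other members, DCP1B, DHX36 and EDC4 also turned from positive to negative, to −0.054, −0.036 and −0.0023 with median-of-ratios rescaling and to −0.047, −0.041 and −0.0043 with quantile normalization, and DCP1B to −0.0036 with a common total. Among the same genes, leaving out 1 library changed the sign of CNOT1 (range −0.021 to 0.044), CNOT7 (−0.053 to 0.027), DCPS (−0.0075 to 0.11), DIS3 (−0.068 to 0.028) and PATL1 (−0.017 to 0.013). With the replicate number as a block, 4 members were lower and 9 higher, and CNOT4 was the one call lost. Of all 10439 genes tested, 760 were lower and 2074 higher in that fit. Same-numbered libraries did not deviate together (correlation −0.169 to −0.00824 over genes). Deviations from a group mean cancel out within the group, so these values cannot exclude a shared culture or batch. Depth is unknown, and genes near 1 FPKM such as EXOSC1 had wide intervals.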

Other observations

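Ratios of members within a library stay the same when each library is multiplied by 1 factor, as in median-of-ratios rescaling, but not under quantile normalization. They are given for the FPKM as deposited. These ratios were picked after their values had been seen, so they are given as values with no test. Summed FPKM of the 9 exosome core subunits over that of the 3 nucleases was 3.17, 3.15 and 3.46 with the vector against 3.73, 3.55 and 4.07 with shYB1. PAN2 over PAN3 was 4.73, 4.82 and 4.62 with the vector against 4.06, 3.73 and 3.83 with shYB1. SKIV2L over WDR61, both of the Ski complex, was 2.24, 2.34 and 2.53 with the vector against 1.88, 1.81 and 2.03 with shYB1. The groups did not overlap in these 3 ratios, nor in PARN over PAN2 and EXOSC8 over EXOSC6. Among all single genes tested, the groups did not overlap in 12.5% toward lower and 30.1% toward higher values. CNOT8 over CNOT7, the paralogous CAF1-type deadenylases, was 4.60, 5.22 and 4.28 with the vector against 4.22, 4.13 and 4.87 with shYB1, and PABPC1 over PABPC4 was 8.54, 9.17 and 8.86 against 8.68, 8.90 and 8.42. In these last ratios, and in CNOT6L over CNOT6, the groups overlapped.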
